A study of Homo sapiens with 12 samples.

Results

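The genes CD247, CD5, PVRIG, PAX5 and NKG7, best known from lymphocytes, were followed in U937, a human pro-monocytic line, after antibodies against the myeloid inhibitory receptor LILRB3. They were chosen by symbol because their counts differed between an antibody group and its IgG controls in earlier results of these data, so their values below are a description and carry no test. All 5 member genes were among the 27825 genes with a symbol in the table of set 1, and 2 of them, CD247 and NKG7, were among the 904 genes of the table of set 2. Set 1 held a LILRB3 antagonist antibody and its IgG group, and set 2 held a LILRB3 agonist antibody and its IgG group, with 3 RNA-sequencing libraries in each of the 4 groups. Every group, IgG included, was labelled as U937 pretreated with interferon gamma at 50 ng/mL, then given the antibody or nonspecific IgG for 72 hours at a concentration the labels write as 5 mg/mL. The labels do not say that libraries came from separate cultures, so the spread and p-values below measure only the differences between these libraries, which may be technical. U937 is 1 transformed line, so these values describe 1 cell background.

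CD247 encodes the zeta chain that carries the activating signal of the T cell receptor and of several NK cell receptors through its ITAM motifs. CD5 is a surface receptor of T cells and of a subset of B cells that dampens antigen receptor signalling. PVRIG is an inhibitory receptor of T and NK cells that binds NECTIN2, a surface protein that antigen-presenting and tumour cells also carry. PAX5 is the transcription factor that commits cells to the B lineage and switches on genes such as CD79A. NKG7 is a membrane protein of cytotoxic granules and takes part in their release.

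Total counts ran from 17053200 to 17790600 in the antagonist libraries and from 17155500 to 18833100 in their IgG libraries. The smaller table of set 2 held 3135970 to 3522200 counts in the agonist libraries and 2764480 to 3321680 in their IgG libraries, which is a part of each library and not its depth. Libraries are numbered here in column order, and a number pairs nothing between groups. No 2 libraries agreed within sampling noise, and the chi-square per degree of freedom between libraries of a group was highest for library 1 of the set 1 IgG group (10.4 and 18.5) and for library 1 of the agonist group (24.9 and 26.6). The myeloid label was checked against a list of 24 myeloid genes, of which 22 had enough counts to be tested in set 1. The others were the monocyte marker CD14, with 5, 5 and 3 counts with the antagonist and 7, 6 and 9 with IgG, and the progenitor marker CD34, with 1 count in all. SPI1, the transcription factor PU.1 of myeloid cells, averaged 269.0 ± 11.6 CPM (counts scaled to one common library size) with the antagonist and 255.2 ± 39.8 CPM with IgG (SD, n = 3 each).

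CD5, PVRIG and CD247 were higher with the antagonist by more than 2-fold at low levels, PAX5 was slightly higher, and NKG7, the abundant one, was lower. CD5 had 51, 50 and 69 raw counts in the antagonist libraries, against 12, 15 and 22 in the IgG libraries. Scaled by trimmed mean of M values (TMM), that was 3.15 ± 0.56 CPM with the antagonist and 0.960 ± 0.356 CPM with IgG (SD, n = 3 each). The lowest antagonist library lay above the highest IgG library, and the log2 fold change of the edgeR fit was 1.73 ± 0.28 (SE). On summed counts over library totals the ratio was 3.53, with a 95% interval of 2.56 to 4.96 that covers counting error only.

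PVRIG had 163, 147 and 186 counts with the antagonist, against 77, 70 and 50 with IgG. The levels were 9.21 ± 1.07 and 3.78 ± 0.63 CPM (antagonist and IgG, SD, n = 3 each), with no overlap between the groups and a log2 fold change of 1.28 ± 0.16 (SE). Antagonist library 3 was the highest for both CD5 and PVRIG. Among the IgG libraries, library 3 was the highest for CD5 and the lowest for PVRIG, so that the 2 genes did not follow one order of libraries in both groups.

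CD247 had 16, 18 and 8 counts with the antagonist, against 6, 3 and 7 with IgG. That is 42 counts in all with the antagonist and 16 with IgG, a ratio of 2.67 on library totals with a 95% counting interval of 1.47 to 5.09, or 1.42 on the log2 scale. CD247 did not reach the count filter, which needs about 10 counts in 3 libraries, and was not fitted. Its groups just cleared each other, at 0.440 CPM in the lowest antagonist library and 0.428 CPM in the highest IgG library.

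PAX5 had 310, 306 and 278 counts with the antagonist, against 245, 231 and 228 with IgG. It averaged 16.6 ± 1.2 CPM with the antagonist and 13.6 ± 0.4 CPM with IgG (SD, n = 3 each), and its log2 fold change was 0.29 ± 0.10 (SE). Here antagonist library 3 was the lowest of its group, as it was for CD247. The PAX5 value depended on one setting: with trends in gene length and GC content removed over all fitted genes, a setting chosen after seeing the data, it was 0.042.

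NKG7 had 4966, 5076 and 5149 counts with the antagonist, against 6377, 5798 and 6117 with IgG. It averaged 282.2 ± 2.2 CPM with the antagonist and 353.4 ± 17.9 CPM with IgG (SD, n = 3 each), a log2 fold change of -0.32 ± 0.06 (SE). The antagonist libraries lay within a few CPM of each other, and all were below every IgG library.

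**Figure D1:**
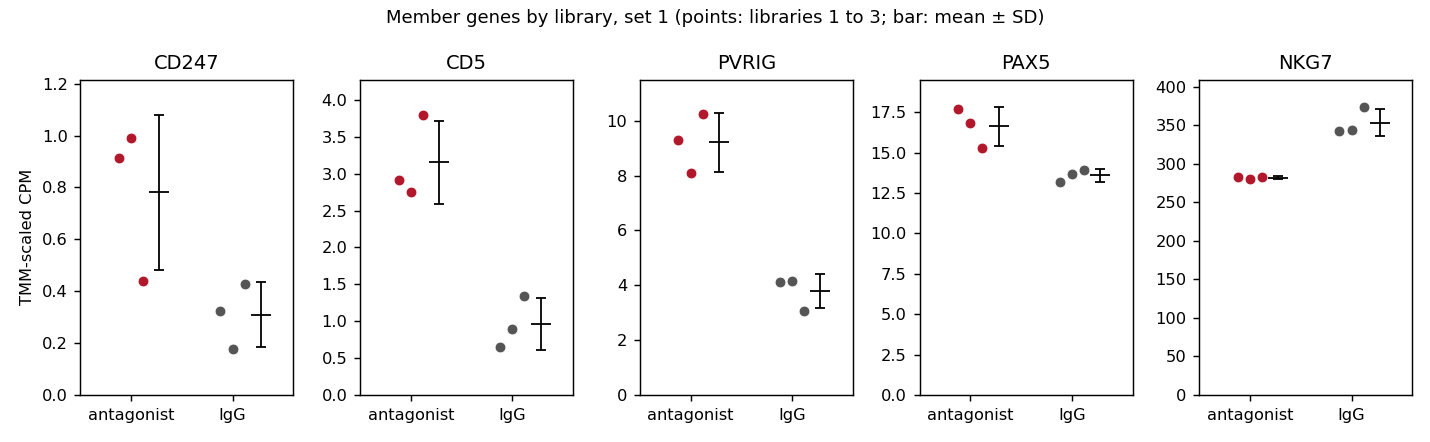
TMM-scaled CPM (linear axes from 0) of the 5 member genes in set 1, with a point for each of the 3 antagonist and 3 IgG libraries and a bar for the mean ± SD. CD5, PVRIG, PAX5 and CD247 were higher and NKG7 lower with the antagonist, and the CD247 groups nearly met, at 0.440 and 0.428 CPM.

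Over all 13778 genes fitted in set 1, the groups of libraries did not overlap for 49.0%, and 36.1% passed edgeR's quasi-likelihood test at a Benjamini-Hochberg adjusted p of 0.05, 15.6% higher and 20.5% lower with the antagonist. That the groups of all 5 member genes were apart was therefore shared with about as many genes as not, and since this contrast chose the members nothing is read from it. A log2 fold change above 1 was rarer: 120 of the 13778 fitted genes (0.871%) had one, and 117 of these 120 averaged under 20 CPM, as CD5 and PVRIG did. Among the 6161 fitted genes under that level, which PAX5 shares, 12.8% passed as higher and 7.34% as lower with the antagonist. By mean level, NKG7 ranked 454 among the fitted genes, PAX5 8394, PVRIG 10216 and CD5 11960.

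Levels can be set side by side between genes only per length of annotated exon. NKG7 reached 301.8 ± 2.3 CPM per kilobase with the antagonist and 378.0 ± 19.2 with IgG. PVRIG stood at 4.64 ± 0.54 CPM per kilobase with the antagonist and 1.91 ± 0.32 with IgG, and PAX5 at 1.78 ± 0.13 with the antagonist and 1.46 ± 0.04 with IgG. CD5 stood at 0.979 ± 0.175 CPM per kilobase with the antagonist and 0.298 ± 0.110 with IgG. CD247 was the lowest, at 0.194 ± 0.074 CPM per kilobase with the antagonist and 0.0767 ± 0.0312 with IgG (SD, n = 3 in every group). The order of levels was the same in both groups, and neighbours in it did not overlap in any library, PVRIG and PAX5 with IgG coming nearest to each other. Of the 50-base windows of PVRIG transcripts, 75.1% also occur in another gene, so the place of PVRIG in this order is uncertain.

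In a bulk library, fewer cells of a type and less RNA per cell cannot be told apart, so the other genes of T cells were read beside CD5, CD247 and PVRIG. The T cell receptor complex is built of the CD3 chains CD3D, CD3E and CD3G, the zeta chain and the receptor chains themselves. CD3D, CD3E and CD3G had 0 counts in antagonist libraries 1 and 2, in which CD5 had 51 and 50 counts, and a count of 0 allows up to 3 counts. In antagonist library 3 they had 3, 5 and 0 counts, and in the IgG libraries 0 throughout. TRAC, the constant part of the receptor alpha chain, had 6, 1 and 11 counts with the antagonist, against 0, 11 and 2 with IgG, so that it was not confined to one group. UBASH3A, a T cell protein that attenuates receptor signals, had 2, 4 and 1 counts with the antagonist, against 11, 6 and 8 with IgG. The early T cell marker CD2 had 1, 2 and 4 counts with the antagonist, against 7, 4 and 0 with IgG.

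Antagonist library 3 stood apart in these genes. The 18 listed T cell genes other than CD247 that fell under the count filter summed to 12, 10 and 58 counts in the antagonist libraries, against 20, 23 and 23 in the IgG libraries. In antagonist library 3, 13 of the 18 had a count, against 5 and 4 in the other antagonist libraries and 3, 4 and 5 in the IgG libraries. CD28, the costimulatory receptor, had 4 counts there, CD7 had 5, and both had 0 in the other 5 libraries. LCK, the kinase that phosphorylates the zeta chain, had 9 counts in antagonist library 3, 5 in IgG library 3 and 0 in the other 4. The T cell gene CD8A went the other way, with 1, 0 and 0 counts with the antagonist, against 0, 0 and 6 with IgG. COL3A1, a fibroblast collagen gene, had 8 counts in antagonist library 3 and 0 in the other 5. The 10 erythroid, epithelial and fibroblast genes under the filter, COL3A1 included, summed to 9, 10 and 21 counts with the antagonist. With IgG they summed to 8, 14 and 18. CD28, CD7, LCK, CD8A and COL3A1 were singled out after their values were seen.

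Without antagonist library 3 the log2 fold change was 1.57 for CD5, 1.20 for PVRIG, 0.34 for PAX5 and -0.33 for NKG7. For CD247, which was not fitted, it was 1.71 on summed counts over library totals. The direction of each gene was thus kept without that library. Listed NK and B cell genes under the filter did not share its excess: 10 NK and granule genes summed to 16, 18 and 20 counts with the antagonist, against 19, 14 and 17 with IgG. The 11 B cell genes summed to 17, 19 and 8 counts with the antagonist, against 15, 19 and 19 with IgG.

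**Figure D2:**
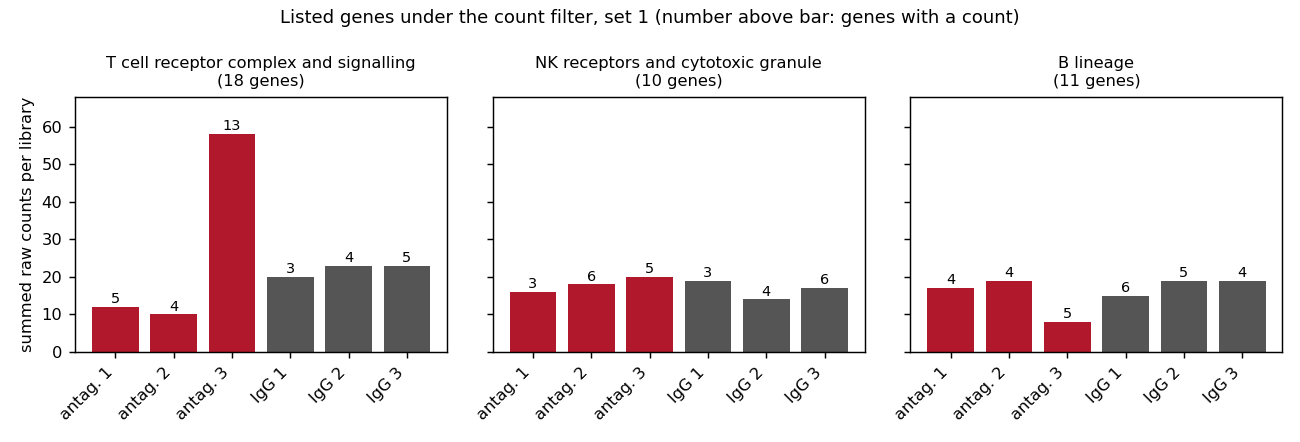
Summed raw counts per library (linear axis) of the listed T cell, NK cell and B cell genes that fell under the count filter in set 1, antagonist libraries in red and IgG libraries in grey, with the number of genes that had a count above each bar. The T cell genes reached 58 counts in antagonist library 3 and 10 to 23 in the other 5 libraries.

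CD5 lies on chromosome 11 from 61102395 to 61127852, plus strand (GENCODE v29, GRCh38), and its nearest counted protein-coding neighbours are VPS37C and CD6. CD6, a receptor of the same scavenger-receptor family that also modulates T cell receptor signals, had 39, 25 and 53 counts with the antagonist, against 16, 21 and 17 with IgG. It rose with a log2 fold change of 1.05 ± 0.31 (SE; edgeR adjusted p = 0.0204). That call did not hold without antagonist library 3 (0.78, adjusted p = 0.117) or without antagonist library 1 (1.03, adjusted p = 0.0696). VPS37C, an ESCRT subunit gene 2404 bases beyond the other end of CD5, rose by less, with a log2 fold change of 0.32 ± 0.09 (SE; edgeR adjusted p = 0.0150), a call also lost without either of those libraries.

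PVRIG lies on chromosome 7 from 100218241 to 100221490, plus strand. All but its last bases lie inside the annotated span of STAG3, a meiotic cohesin gene on the same strand that ends at 100221488. PVRIG lies wholly inside the span of CASTOR3 on the other strand. Of the 1931 windows of 50 bases in its annotated transcripts, 1450 (75.1%) also occur in transcripts of another gene, 1442 of them in STAG3 and 339 in PILRB. The sources used here give neither the counting program nor the use of strand, so how reads were divided between these genes is uncertain. STAG3 itself had 94, 92 and 103 counts with the antagonist, against 66, 80 and 76 with IgG, a log2 fold change of 0.32 ± 0.16 that did not pass (SE; edgeR adjusted p = 0.135). CASTOR3 had a log2 fold change of 0.48 ± 0.15 (SE; edgeR adjusted p = 0.0272), a call lost without antagonist library 1, antagonist library 3 or IgG library 1. To the left, GPC2, a glypican gene, rose with a log2 fold change of 0.63 ± 0.15 (SE; edgeR adjusted p = 0.00589). To the right, SPDYE3 had 0.08 ± 0.17 (SE; edgeR adjusted p = 0.744). The fitted value of PVRIG was the highest of these 5 genes, but PVRIG was chosen from this contrast, so nothing is read from that.

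NKG7 lies on chromosome 19 from 51371606 to 51372715, minus strand, and shares none of its 1042 windows with another gene. CLDND2, a claudin-domain gene 2603 bases away, went the other way from NKG7, with a log2 fold change of 0.46 ± 0.11 (SE; edgeR adjusted p = 0.00652), and LIM2 on the other side had 0 to 4 counts in a library. PAX5 lies on chromosome 9 from 36833275 to 37034185, minus strand, and overlaps an antisense gene with which it shares 33 of 9830 windows. Its nearest counted protein-coding neighbours were MELK, a cell cycle kinase gene (log2 fold change -0.13 ± 0.12, SE; edgeR adjusted p = 0.440), and ZCCHC7. ZCCHC7 had -0.23 ± 0.08 (SE; edgeR adjusted p = 0.0379), and that call was lost in 9 of the alternative settings.

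CD247 lies on chromosome 1 from 167430640 to 167518610, minus strand, between POU2F1 and CREG1. POU2F1, the octamer-binding factor OCT1, had a log2 fold change of 0.01 ± 0.07 (SE; edgeR adjusted p = 0.914) in set 1. CREG1, a lysosomal glycoprotein gene, fell by 0.52 ± 0.06 on the log2 scale (SE; edgeR adjusted p = 0.000196), while CD247 was higher.

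**Figure D3:**
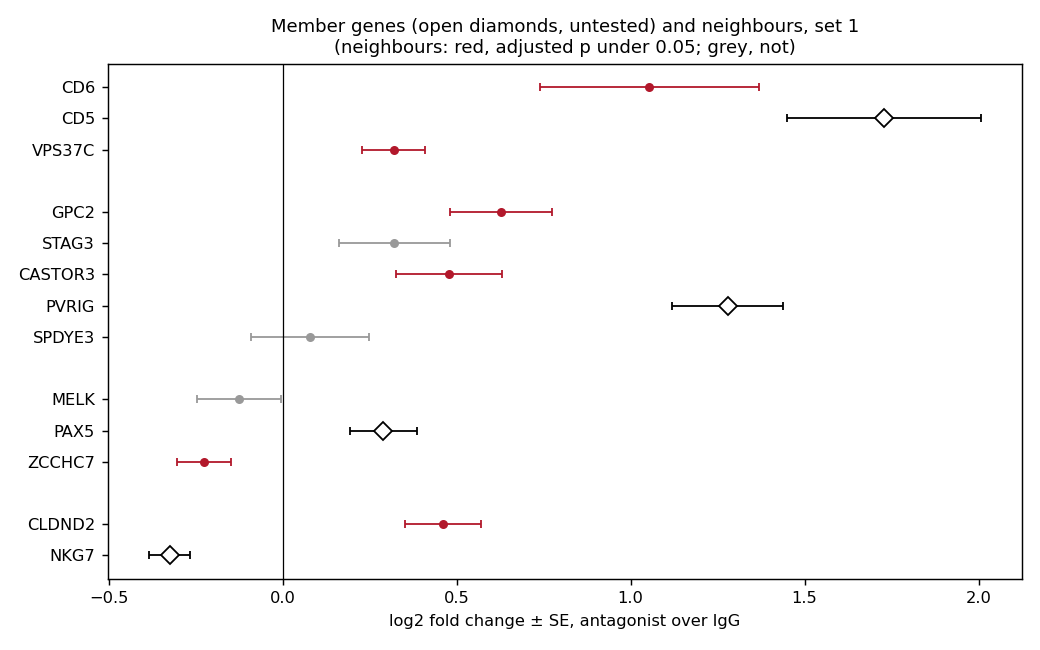
Log2 fold change, antagonist over IgG, with its SE for CD5, PVRIG, PAX5 and NKG7 (open diamonds, untested) and their neighbours in chromosome order, neighbours in red where the edgeR adjusted p was under 0.05. PVRIG, at 1.28, lay above the 4 genes around it, which ran from 0.08 to 0.63. It was chosen from this contrast and they were not, so nothing is read from that.

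RefSeq's promoter table for GRCh38.p14 held 4 of the 5 genes, NKG7, PAX5, PVRIG and CD247. The 250 bases before each start were searched on both strands for 4 short motifs of factors active in blood cells. These were TTCNNNGAA for the interferon gamma activated site, GGAAGT for an ETS core, TGTGGT for RUNX and GAGGAA for the PU.1 box. The windows with a match are shown to let the member promoters be compared, and NKG7 had none. The 30 bases run 5′ to 3′ on the strand of the gene, with the match in capitals.
CD247, ETS core 53 bases before the start, chr1:167518565-167518594, minus strand: ccacagtcctccACTTCCtggggaggtagc
PVRIG, ETS core 81 bases before the start, chr7:100219856-100219885, plus strand: gagaggagagaaGGAAGTggctgtttggct
PVRIG, ETS core 48 bases before the start, chr7:100219889-100219918, plus strand: gacaacatgaagACTTCCtgcgatgagaac
PAX5, PU.1 box 114 bases before the start, chr9:37034365-37034394, minus strand: agcgcctaccctTTCCTCgctccgggccgg
The ETS core was in 19.5% of 35116 promoter windows of this length, the PU.1 box in 23.6%, RUNX in 10.98% and the interferon gamma activated site in 6.57%. None of the 4 genes had a match to the RUNX or interferon gamma motif in its window. GENCODE v29 starts PVRIG and CD247 further out, so the 30 bases printed for those genes lie inside their annotated spans there. For PVRIG the start used by the promoter table also lies inside RefSeq's own span of the gene. A match describes letters and not a bound site.

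The other genes of each pathway were read from lists, members left out. Their calls are to be set beside those over all fitted genes of set 1, of which 15.6% rose and 20.5% fell. In the T cell receptor list, 9 of 27 genes had enough counts to be fitted, 3 rose and 1 fell, the median log2 fold change being 0.04 for the list and -0.01 for all fitted genes. None of the 4 calls was made without antagonist library 1 or without antagonist library 3, and without antagonist library 2 or IgG library 2 there was 1 in each direction. Besides CD6, the costimulatory receptor CD27 had a log2 fold change of 1.04 ± 0.35 (SE; edgeR adjusted p = 0.0344) on 15, 21 and 22 counts with the antagonist, against 11, 10 and 6 with IgG. The CD27 call was lost in 6 of the alternative settings, and the DESeq2 test gave it no adjusted p. LCP2, an adaptor downstream of the zeta chain that myeloid cells also use, rose with 0.18 ± 0.06, and the phosphatase PTPRC (CD45) fell by 0.23 ± 0.06 on the log2 scale (SE; edgeR adjusted p = 0.0391 and 0.0137).

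CD247 is one of several ITAM adaptors, and some genes listed with them that myeloid cells use fell in set 1. In the list of ITAM adaptors, Fc receptors and their kinases, 16 of 19 genes were fitted, with a median of -0.18. Of these, 1 rose and 5 fell, against 15.6% and 20.5% of all fitted genes. Scaling by library totals left 2 of those 5, and leaving out 1 library gave 3 to 6. HCST (DAP10), which signals for NKG2D, is in the list but has no ITAM. It averaged 37.0 ± 1.3 CPM with the antagonist and 50.3 ± 4.6 CPM with IgG (SD, n = 3 each; log2 fold change -0.44 ± 0.08, SE; edgeR adjusted p = 0.00122). TYROBP (DAP12) averaged 38.7 ± 2.2 CPM with the antagonist and 50.4 ± 3.8 CPM with IgG (log2 fold change -0.38 ± 0.08, SE; edgeR adjusted p = 0.00245). FCER1G, the Fc receptor gamma chain that can pair with the zeta chain, fell by 0.28 ± 0.07 and FCGR2A by 0.25 ± 0.06 on the log2 scale, neither of which passed with scaling by library totals.

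Among relatives of CD5 and other attenuators of antigen receptors, 12 of 14 genes were fitted, with a median of 0.05. Of these, 2 rose and 0 fell, against 15.6% and 20.5% of all fitted genes. CBL, a ubiquitin ligase that ends receptor signals, averaged 112.4 ± 3.7 CPM with the antagonist and 84.7 ± 0.7 CPM with IgG (SD, n = 3 each; log2 fold change 0.41 ± 0.06, SE; edgeR adjusted p = 0.000381). CD6 was the other. Scaling by library totals called 4 genes, leaving out antagonist library 1 or antagonist library 3 called 1, and without IgG library 1 there were 3 higher and 2 lower.

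NECTIN2, the ligand of PVRIG, averaged 96.5 ± 7.5 CPM with the antagonist and 107.5 ± 5.9 CPM with IgG (SD, n = 3 each), a log2 fold change of -0.16 ± 0.07 that did not pass (SE; edgeR adjusted p = 0.102). Of the 8 genes of this family other than PVRIG, 3 were fitted and PVR was the one called. Scaling by library totals or by DESeq2 size factors called 2 as higher, and so did leaving out IgG library 3. Without IgG library 1 there was 1 higher and 1 lower. PVR, the ligand shared by TIGIT, CD226 and CD96, averaged 59.7 ± 3.3 CPM with the antagonist and 47.6 ± 3.2 CPM with IgG (log2 fold change 0.33 ± 0.07, SE; edgeR adjusted p = 0.00418).

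NKG7 was read beside other granule genes, several of which fell. In the list of NK receptors and cytotoxic granule genes, 14 of 24 were fitted, with a median of -0.10. Of these, 0 rose and 5 fell, against 15.6% and 20.5% of all fitted genes. In the alternative settings run, 3 to 5 genes of the list fell. Serglycin (SRGN), the proteoglycan core of granules, averaged 557.4 ± 28.1 CPM with the antagonist and 780.0 ± 83.8 CPM with IgG (SD, n = 3 each; log2 fold change -0.48 ± 0.08, SE; edgeR adjusted p = 0.000699). CST7, cystatin F, an inhibitor of granule cathepsins, averaged 1258 ± 47 CPM with the antagonist and 1598 ± 52 CPM with IgG (log2 fold change -0.34 ± 0.06, SE; edgeR adjusted p = 0.000872). CTSC, the protease that activates granzymes and neutrophil serine proteases, fell by 0.33 ± 0.07 and the granule-docking GTPase RAB27A by 0.24 ± 0.06 on the log2 scale, the second of which was lost with library totals and without antagonist library 3.

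The other genes of that list ran from 0 counts to the levels of CD5 and above. Perforin (PRF1) had 2, 1 and 1 counts with the antagonist, against 3, 3 and 1 with IgG. Granulysin (GNLY) had 0, 1 and 3 counts with the antagonist, against 0, 6 and 5 with IgG. Granzyme B (GZMB) had 12, 6 and 14 counts with the antagonist, against 15, 3 and 4 with IgG, and the NK marker NCAM1 had 44, 45 and 39 with the antagonist, against 35, 40 and 23 with IgG (log2 fold change 0.33 ± 0.23, SE; edgeR adjusted p = 0.291). CD160, a receptor of NK and T cells, had 59, 54 and 59 counts with the antagonist, against 57, 35 and 39 with IgG. Granzyme M (GZMM) had 30, 35 and 32 with the antagonist, against 11, 26 and 30 with IgG, and the receptor KLRF1 had 27, 40 and 29 with the antagonist, against 43, 39 and 24 with IgG. None of these fitted genes passed, and CD160, GZMM and KLRF1 were singled out after their values were seen. In the myeloid list 3 genes rose and 5 fell of 22 fitted, with a median of -0.01. The shares over all fitted genes were 15.6% and 20.5%. Without antagonist library 1 there was 1 higher and 4 lower in the myeloid list. The granule protease CTSG averaged 2604 ± 62 CPM with the antagonist and 3326 ± 37 CPM with IgG (log2 fold change -0.35 ± 0.05, SE; edgeR adjusted p = 0.000507). LYZ fell by 0.46 ± 0.08 and MNDA by 0.39 ± 0.08, while ITGAX rose with 0.42 ± 0.08 (log2 scale, SE).

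CD79A, which PAX5 switches on, did not pass the test. It had 108, 80 and 100 counts with the antagonist, against 118, 98 and 110 with IgG (log2 fold change -0.23 ± 0.16, SE; edgeR adjusted p = 0.262). MS4A1 (CD20) had 0 counts in all 6 libraries, which allows up to 3 counts in each. Of 29 listed genes other than PAX5, 18 were fitted, with a median of 0.04. Of these, 0 rose and 2 fell, against 15.6% and 20.5% of all fitted genes. Those that fell were IGLL1, the surrogate light chain of B cell precursors, with 15.9 ± 1.4 CPM with the antagonist and 21.9 ± 0.5 CPM with IgG, and XBP1, the secretory stress factor, with 171.1 ± 3.0 and 222.2 ± 12.7 CPM (antagonist and IgG, SD, n = 3 each). Their log2 fold changes were -0.46 ± 0.09 and -0.38 ± 0.06 (SE; edgeR adjusted p = 0.00244 and 0.000728). With scaling by library totals or without IgG library 3, 3 genes of the list were called higher.

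Among 16 transcription factors of T and NK cells, 12 were fitted, 2 rose and 2 fell, with a median of 0.19. Over all fitted genes 36.1% were called, 15.6% higher and 20.5% lower. TCF7, the T cell factor TCF-1, had 52, 48 and 59 counts with the antagonist, against 33, 33 and 25 with IgG (log2 fold change 0.75 ± 0.21, SE; edgeR adjusted p = 0.0142), and did not pass without antagonist library 3 (adjusted p = 0.0642). NFATC2, a factor activated by calcium signals, averaged 68.01 ± 4.28 CPM with the antagonist and 44.98 ± 5.89 CPM with IgG (SD, n = 3 each; log2 fold change 0.60 ± 0.09, SE; edgeR adjusted p = 0.000572). ID2 and ETS1 fell by 0.26 ± 0.06 and 0.21 ± 0.08 on the log2 scale, and neither passed with library totals. The ETS1 call was lost in 8 of the alternative settings. Of the list of 12 erythroid, epithelial and fibroblast genes, 2 were fitted and 0 were called.

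**Figure D4:**
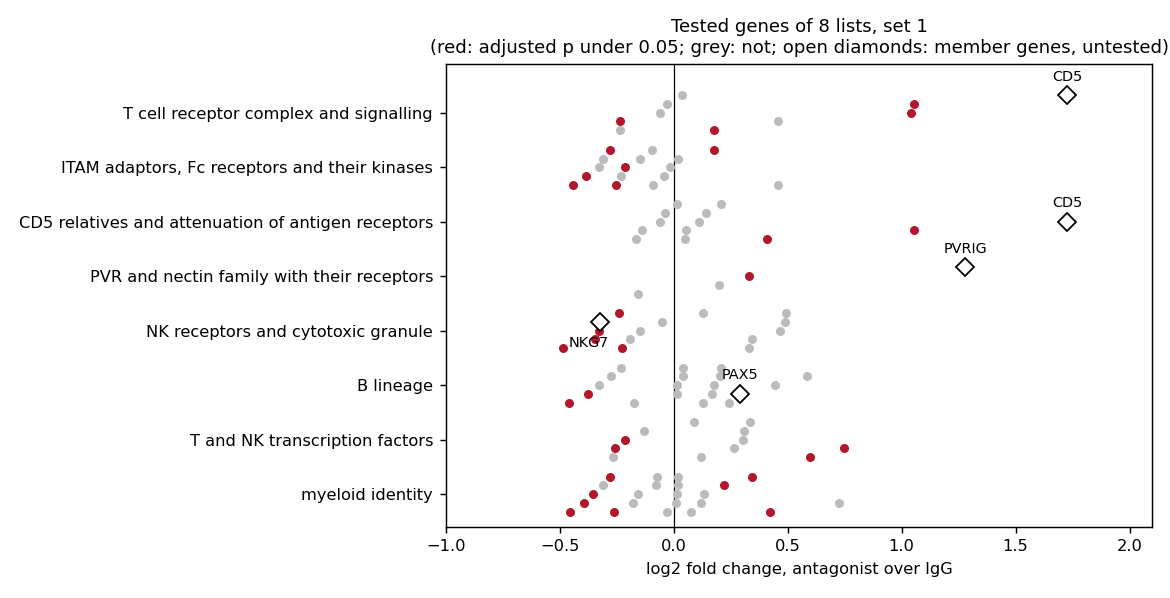
Log2 fold change, antagonist over IgG, of the fitted genes of 8 lists in set 1, a point for each gene, red where the edgeR adjusted p was under 0.05 and grey where not, with CD5, PVRIG, NKG7 and PAX5 as open diamonds, untested. CD5 at 1.73 and PVRIG at 1.28 lie to the right of the listed genes, and NKG7 at -0.32 lies among granule genes that fell. The member genes were chosen from this contrast, so nothing is read from their places.

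The genes whose pattern over the 6 libraries of set 1 was most like each member were found by Pearson correlation of log2 CPM. The 6 libraries are 2 groups of 3, so a high value mainly restates the difference between groups. For CD5 the nearest were SMARCC2, MINK1 and FOXJ2 (r = 0.999, 0.998 and 0.997), and 11.7% of 10667 genes had r above 0.9. For PVRIG they were NBPF11, APOL2 and C18orf25 (r = 0.998, 0.997 and 0.997), with 7.57% of genes above 0.9. For NKG7 they included BRMS1 and PHF20 (r = 0.997 and 0.995), with 9.19% above 0.9. For PAX5 they were PYROXD2, SEC61A2 and FCHSD2 (r = 0.989, 0.986 and 0.986), with 4.54% above 0.9. All of the genes named for CD5 had smaller differences than CD5 itself, from 0.40 to 0.54 on the log2 scale against 1.73. CD5 was chosen from this contrast, so nothing is read from that.

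With the agonist, CD247 and NKG7 both differed in the opposite direction from the antagonist, a contrast that was not itself tested. CD247 had 81, 60 and 72 counts with the agonist, against 164, 125 and 138 with IgG. As CPM of the counts listed in that table, it averaged 21.3 ± 2.3 with the agonist and 45.9 ± 3.2 with IgG (SD, n = 3 each), with no overlap and a log2 fold change of -1.10 ± 0.17 (SE). The ratio of summed counts was 0.459, with a 95% counting interval of 0.388 to 0.543.

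NKG7 had 5445, 4753 and 4700 counts with the agonist, against 4577, 3470 and 3894 with IgG. It averaged 1495 ± 102 CPM of listed counts with the agonist and 1283 ± 86 with IgG (SD, n = 3 each), a log2 fold change of 0.22 ± 0.07 (SE). The lowest agonist library, at 1388, was just above the highest IgG library, at 1382. With DESeq2 size factors, and with the DESeq2 test, the value was 0.13. With length and GC trends removed, NKG7 had a log2 fold change of -0.22 in this table, and the median of all listed genes was -0.02 in place of 0.19.

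That table holds genes that already differed: 99.9% of its 904 genes passed edgeR's test, 55.6% higher and 44.2% lower with the agonist, and the groups did not overlap for 97.6%. Its log2 fold changes leave a gap around 0, from -0.25 to 0.12. Calls in it therefore add no evidence of their own, and CD5, PVRIG and PAX5 were not analysed in set 2.

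**Figure D5:**
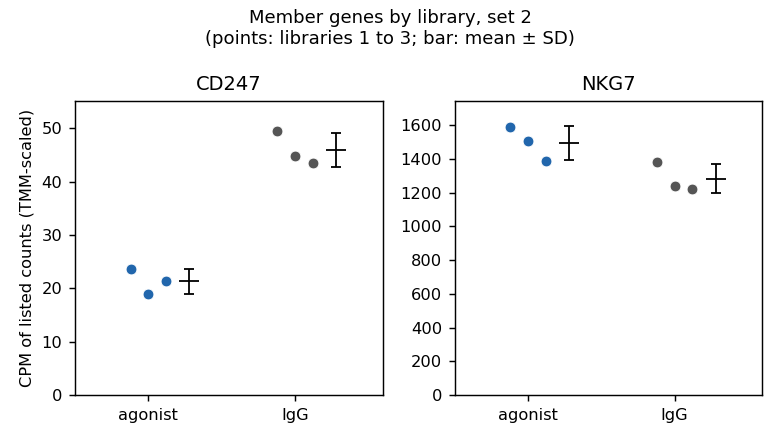
TMM-scaled CPM of the counts listed in the set 2 table (linear axes from 0) for CD247 and NKG7, with a point for each of the 3 agonist and 3 IgG libraries and a bar for the mean ± SD. CD247 was lower with the agonist in each library, and the NKG7 groups were apart by 1388 against 1382.

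Other genes from the list of ITAM adaptors, Fc receptors and their kinases were higher with the agonist in set 2, while CD247 was lower. Since 99.9% of the genes of this table passed edgeR's test, the adjusted p-values given here add no evidence of their own. TYROBP averaged 1067 ± 141 CPM of listed counts with the agonist and 734 ± 64 with IgG (SD, n = 3 each; log2 fold change 0.54 ± 0.09, SE; edgeR adjusted p = 0.000357). HCST had 0.43 ± 0.08, FCGR2B 0.40 ± 0.08, FCER1G 0.30 ± 0.07 and FCGR2A 0.17 ± 0.07 (log2 fold change, SE), FCGR2A not passing with DESeq2 size factors. All 5 genes of that list in the table were thus higher, beside 55.6% of all 904 genes there. The direction was not particular to this list, since all 5 genes of the myeloid list in the table were also higher. LAT, the adaptor that the kinase ZAP70 phosphorylates, rose with 0.27 ± 0.07 and UBASH3B, a phosphatase that acts on SYK-family kinases, fell by 0.52 ± 0.08 on the log2 scale (SE; edgeR adjusted p = 0.00445 and 0.000221). SRGN, beside NKG7 in the granule list, had 0.13 ± 0.05 and did not pass with DESeq2 size factors.

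The antagonist and agonist contrasts have separate IgG groups and separately deposited tables, so levels across them are given without a test. As CPM of the counts of the 902 genes found in both tables, CD247 averaged 5.52 ± 2.13 with the antagonist and 2.03 ± 0.80 with its IgG. It averaged 21.2 ± 1.9 with the agonist and 46.1 ± 2.9 with the IgG of that set (SD, n = 3 each). Its lowest library in set 2 was thus above its highest in set 1, and the difference between the IgG groups was wider than that between either antibody and its own IgG. Such a gap was not particular to CD247: on the same scale CD14 averaged 182.5 ± 4.5 with the agonist and 96.7 ± 11.5 with the IgG of set 2, against 1.71 ± 0.48 with the antagonist and 2.80 ± 0.64 with the IgG of set 1. FCER1G averaged 1385 ± 110 in the IgG group of set 2 and 327 ± 20 in that of set 1. NKG7 averaged 1989 ± 6 with the antagonist and 2319 ± 75 with its IgG, and 1485 ± 80 with the agonist and 1290 ± 77 with the IgG of set 2. For NKG7 the order of sets was the reverse, with each library of set 1 above each library of set 2.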

How the data were processed

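For each set the authors deposited a table of raw, whole-number counts by gene. Per the submitters' processing notes, HISAT2, Cufflinks and build hg38 were used; the sources used here give no versions, counter, annotation or strand setting. Trizol and chloroform were used for extraction, per the labels' protocols. Columns carry the group name without a replicate number, and the set 2 column names do not name interferon, which the labels give. Rows without a symbol (570 in set 1, 0.0678% to 0.105% of counts) were left out. Each antibody was compared with its own IgG libraries by edgeR 4.0.16 (filterByExpr, TMM, robust quasi-likelihood fit, R 4.3.3), with Benjamini-Hochberg adjustment over all fitted genes, and the code was tested on simulated data. CPM are TMM-scaled. Alternatives were DESeq2 1.42.0, its size factors in edgeR, library totals, no filter, each library left out, and removal of length and GC trends. The last was read for the member genes and the median over all genes, and not for the genes of the lists. The members and gene lists were chosen with earlier results of these data known. Named listed genes were called ones with groups apart, at most 4 a list by size of change, plus set markers, neighbours and the 3 most alike genes per member with a mean of at least 5 CPM. The correlations used log2 CPM with a prior count of 2. Neighbours and exon lengths came from GENCODE v29 (GRCh38), promoters from RefSeq (GRCh38.p14). Counting intervals cover counting error only. A few genes that these rules name are not reported here.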

Additional observations from a re-analysis of the deposited data

Results flagged for a closer look

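CD247 and NKG7, the member genes listed in both tables, differed in opposite directions under the antagonist and the agonist. CD247 was not fitted in set 1, where its log2 ratio of summed counts over library totals was 1.42, antagonist over IgG. The same measure was -1.12 for the agonist over its IgG, and the edgeR log2 fold change there was -1.10. For NKG7 the edgeR log2 fold change was -0.32 with the antagonist and 0.22 with the agonist. In each of these contrasts every antibody library lay on the same side of every IgG library of its set. That also held for 49.0% of all fitted genes in set 1 and 97.6% in set 2. The groups only just cleared each other for CD247 in set 1 (0.440 against 0.428 CPM) and for NKG7 in set 2. The difference between the contrasts was not tested, since the tables were deposited separately and the second holds only genes that already differed. Without length and GC trends the NKG7 value with the agonist was -0.22, which is then on the same side as with the antagonist. With DESeq2 size factors it was 0.13.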

How the results depend on the processing

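Of 81 alternative values for the member genes, 75 moved by less than 1 SD between replicates, 5 moved by more and 1 reversed. NKG7 with the antagonist was -0.24 with library totals, -0.24 from summed counts and -0.22 with length and GC trends removed. With those trends removed, a setting chosen after seeing the data and known for 95.2% and 96.6% of the fitted genes of the 2 sets, PAX5 was 0.042 with the antagonist, CD247 was -1.29 with the agonist, and NKG7 reversed to -0.22 with the agonist. The cause was not tested. NKG7 with the agonist was 0.13, in place of 0.22, with DESeq2 size factors and with the DESeq2 test, within 1 SD but smaller by over 1.5 times.

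Leaving out each library in turn, log2 fold changes with the antagonist ranged from 1.52 to 2.05 for CD5 and 1.16 to 1.38 for PVRIG. They ranged from 0.24 to 0.34 for PAX5 and -0.33 to -0.27 for NKG7. For CD247 the range was 1.15 to 1.71, on summed counts over library totals and not from the edgeR fit. With the agonist they ranged from -1.19 to -1.03 for CD247 and 0.17 to 0.28 for NKG7. The number of genes called in set 1 was 4978, ranging from 3143 (without antagonist library 1) to 5075, with 3190 without antagonist library 3; fewer libraries were fitted. In set 2 it was 903, ranging from 846 to 885. The share of set 1 calls that were higher was 43.1%, and 65.4% with library totals. In set 2 it was 55.7%, and 44.2% with DESeq2 size factors. No paired analysis was possible because the columns carry no replicate numbers. CD247 in set 1 is limited by depth, with 42 and 16 counts in all.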
